A study of Homo sapiens with 6 samples.

Results

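The genes described here are 7 enzymes of cholesterol synthesis (HMGCS1, IDI1, FDPS, FDFT1, SQLE, LSS and DHCR7) and INSIG1, a regulator of that pathway. They were taken by name from the deposited table of counts, as 8 of its 20030 genes. The rule for them uses no measured value, but the genes were chosen with earlier results of these data known. RNA-seq was performed on 6 libraries of cells labelled H929, which is NCI-H929, an established human multiple myeloma line. The 3 IGF2BP1-KD libraries came from cells in which IGF2BP1, a reader protein of the m6A mark on mRNA, was knocked down, and the 3 IGF2BP1-NC libraries came from negative control cells. In the study's methods the knockdown used a lentiviral shRNA expressed from a U6 promoter (GV112 backbone with puromycin resistance), for which more than 1 target is listed, and the text does not say which target these libraries carry. Nothing in the labels says that the libraries came from separate cultures, so p-values measure the spread between these libraries, which may be technical. In bulk RNA, fewer cells of a type and less RNA per cell cannot be told apart.

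Cholesterol is made from acetyl-CoA through mevalonate, isoprenoid diphosphates, squalene and lanosterol, on enzymes of the endoplasmic reticulum, cytosol and peroxisome. The genes of nearly the whole pathway are transcribed under the control of SREBP2, a membrane-bound factor that the escort protein SCAP carries to the Golgi for cleavage when sterols are low. When sterols are plentiful, INSIG proteins hold SCAP in the endoplasmic reticulum, and INSIG1 is itself a target of SREBP. SREBP1, the related factor encoded by SREBF1, acts more on fatty acid synthesis.

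Of the 8 genes, LSS, INSIG1, DHCR7 and FDPS were lower in IGF2BP1-KD cells, and HMGCS1, IDI1, FDFT1 and SQLE did not pass the test. The 4 calls rest on edgeR's quasi-likelihood test with a Benjamini-Hochberg adjusted p under 0.05, which also called 14.5% of the 11994 genes tested lower and 13.7% higher. LSS was the only 1 of the 8 that was also at least 2-fold lower, which held for 1.67% of the genes tested. No gene of the 8 was called higher by edgeR, also at an unadjusted p under 0.05, and all 8 log2 fold changes were below 0, by DESeq2 and limma-voom as well. Over all 11994 genes tested, 6081 were below 0 by edgeR. At an unadjusted p under 0.05, 5 of the 8 were lower. For unadjusted p the share over all genes is not given, here or for the lists below, so these counts have no background. IGF2BP1-KD and IGF2BP1-NC libraries did not overlap for 5 of the 8 genes, and 23.2% of the genes tested were lower in this way. The 8 genes had a median log2 fold change of -0.45, where the median of all genes tested was -0.0048.

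The libraries held 16885449 to 18112179 counts each, at which a count of 0 allows up to 0.166 to 0.178 CPM (counts scaled to library depth), which is 3 counts and covers counting error only. IGF2BP1 itself ran from 43.7 to 49.1 FPKM (fragments scaled to gene length and library depth) for the controls and from 12.8 to 13.5 FPKM for the knockdown, and its log2 fold change was -1.85 (SE 0.065, adjusted p = 4.8e-08 by edgeR). The labelled cell type was checked against its markers. Of 12 plasma cell markers, 3 were above 1 CPM in every library. Another 6 had at most 3 counts in every library (TNFRSF17, CD38, IRF4, POU2AF1, CD27 and FCRL5), with CD27 at 0 in all 6. All 12 erythroid markers were above 1 CPM in every library. The erythroid markers summed to 7382 to 8923 CPM in IGF2BP1-NC and 8514 to 9268 CPM in IGF2BP1-KD libraries, and the plasma cell markers to 77.2 to 162 and 81.1 to 87.2 CPM. These values go against the labelled cell type, so H929 is used here as a label only. Hepatocytes have high sterol synthesis, and 5 markers of them, none above 1 CPM in every library, summed to 0.520 to 2.12 CPM in IGF2BP1-NC and 2.70 to 7.88 CPM in IGF2BP1-KD libraries. Of 5 megakaryocyte and 6 granulocyte markers, 1 each was above 1 CPM throughout. By edgeR 4 of the 12 erythroid markers were called lower and 2 higher, and 1 of the 12 plasma cell and 1 of the 5 hepatocyte markers were called higher. Over all genes tested 14.5% were called lower and 13.7% higher. The part of other cell types in the results was not tested.

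The sequences before the start sites of the 4 genes called lower are shown as a description, because SREBP2 acts on promoters. A part of SREBP2 in the changes of these genes was not tested. Each runs 5′ to 3′ on the gene's own strand, begins 250 bases before a RefSeq start site (GRCh38.p14) and stops at the next base that an annotated exon of the gene covers. Positions are counted back from that start site, with -1 the base just before it. Capitals mark a CCAAT box, known as the site of NF-Y, a GC box (GGGCGG), known as the site of Sp1, a form of the sterol regulatory element (TCACNCCAC) or a looser form of it (TCACNCNAN), and an E-box (CACGTG), searched on both strands. ATTGG and CCGCCC are the CCAAT and GC boxes of the other strand, CACGTG reads alike on both, and every TCACNCCAC is also a TCACNCNAN. FDPS is shown from chr1:155308616-155308747 on the plus strand, INSIG1 from chr7:155297628-155297775 on the plus strand, DHCR7 from chr11:71448436-71448643 on the minus strand and LSS from chr21:46228825-46229024 on the minus strand. The DHCR7 stretch lies within the annotated span of the gene, in none of its exons. DHCR7 has 2 RefSeq windows, and the one not shown, with its start site at base 71449043, holds none of these 5 motifs.
FDPS: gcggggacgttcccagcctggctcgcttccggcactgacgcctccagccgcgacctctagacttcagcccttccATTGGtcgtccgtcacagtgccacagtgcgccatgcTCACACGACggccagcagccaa
INSIG1: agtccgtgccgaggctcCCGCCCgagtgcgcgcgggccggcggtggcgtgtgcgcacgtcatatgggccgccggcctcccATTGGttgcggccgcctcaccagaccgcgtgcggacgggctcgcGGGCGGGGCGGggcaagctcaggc
DHCR7: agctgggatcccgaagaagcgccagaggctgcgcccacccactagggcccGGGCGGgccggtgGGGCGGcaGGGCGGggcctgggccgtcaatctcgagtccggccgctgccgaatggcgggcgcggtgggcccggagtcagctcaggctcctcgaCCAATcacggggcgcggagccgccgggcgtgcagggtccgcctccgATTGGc
LSS: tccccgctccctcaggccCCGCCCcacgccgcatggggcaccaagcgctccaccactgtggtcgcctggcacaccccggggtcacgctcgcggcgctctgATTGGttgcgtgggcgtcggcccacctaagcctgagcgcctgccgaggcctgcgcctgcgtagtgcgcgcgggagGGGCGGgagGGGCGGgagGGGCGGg

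Each of the 4 stretches holds a whole CCAAT box, at -176 in FDPS, -170 in INSIG1 and -150 in LSS, all on the other strand, and at -94 and -48 in DHCR7. INSIG1, DHCR7 and LSS also hold GC boxes, 3 in the INSIG1 stretch, of which a pair overlaps, 3 in that of DHCR7 and 4 in that of LSS. FDPS holds the looser sterol element at -140, and its window holds CCAAT boxes at -122, where the printed stretch ends inside the box, and at -51, and a GC box at -22. RefSeq promoter windows (250 bases before to 50 bases after a start) were at hand for 6 of the 8 genes, 10 windows in all, and SQLE and FDFT1 were not matched. A CCAAT box stood in 7 of these 10 windows and in 34.6% of all 35116 windows, and a GC box in 9 of the 10 and in 45.0% of all. All 6 matched genes, called or not, had at least 1 window with each of these boxes. This counts genes with 1 to 3 windows each, some of them overlapping, and the same share over all genes is not given. The form TCACNCCAC was in none of the 10 windows and in 1.13% of all, the looser form was in the FDPS window only and in 9.04% of all, and the E-box was in windows of INSIG1 and LSS and in 7.26% of all. These are matches of letters in short windows and were not measured as binding sites.

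HMGCS1 (NCBI gene 3157) encodes the cytosolic synthase that makes HMG-CoA from acetyl-CoA and acetoacetyl-CoA. On GRCh38 HMGCS1 spans bases 43287470 to 43313512 of chromosome 5 (minus strand), and its canonical transcript in GENCODE release 44 has 11 exons. For libraries 1, 2 and 3 in turn, its counts were 3641, 6224 and 7766 under IGF2BP1-NC and 5725, 5050 and 4413 under IGF2BP1-KD. All 3 IGF2BP1-KD libraries thus lay between the lowest and the second IGF2BP1-NC library, and the groups overlapped. At 47.0 ± 15.8 FPKM in IGF2BP1-NC and 41.2 ± 4.82 FPKM in IGF2BP1-KD cells (SD, n = 3 each), HMGCS1 had the widest control spread of the 8 genes by the ratio of the highest to the lowest library, 2.04 for library 3 over library 1. The log2 fold change was -0.21 (SE 0.30, adjusted p = 0.662 by edgeR), with a 95% interval that ran from 49.7% to 151% of the control level. Without IGF2BP1-NC library 1 it was -0.46 (adjusted p = 0.0260), and without IGF2BP1-NC library 3 it turned to 0.029.

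IDI1 (NCBI gene 3422), the isomerase that turns isopentenyl diphosphate into dimethylallyl diphosphate, spans bases 1039152 to 1049119 of chromosome 10 (minus strand), with 5 exons in its canonical transcript. In the same order, control libraries held 1802, 2385 and 2633 of its counts, and knockdown libraries 2057, 1908 and 1702. IGF2BP1-NC library 1 lay among the IGF2BP1-KD libraries, and the other two control libraries lay above all of them. The levels were 20.2 ± 3.43 and 17.1 ± 1.48 FPKM (SD, n = 3 each), the lowest of the 8 genes in both groups. The log2 fold change of -0.26 (SE 0.13, 95% interval -0.57 to 0.051) did not pass edgeR's test (adjusted p = 0.190), and it was -0.40 without IGF2BP1-NC library 1 (adjusted p = 0.00156). GENCODE names 3 pseudogenes of IDI1 and places IDI2-AS1 over it on the opposite strand, so its counts are uncertain to the extent that reads were shared.

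FDPS (NCBI gene 2224) makes farnesyl diphosphate, from which sterols, dolichol, ubiquinone and the lipid anchors of prenylated proteins branch. On GRCh38 FDPS spans bases 155308748 to 155320666 of chromosome 1 (plus strand), and its canonical transcript has 11 exons. Control libraries held 3830, 4418 and 4406 counts, and knockdown libraries 3303, 2894 and 2830. Every IGF2BP1-KD library was below every IGF2BP1-NC library, and both groups were tight, the highest library being 1.15 and 1.14 times the lowest by FPKM. FDPS was the most abundant of the 8 genes, at 127 ± 8.75 FPKM in IGF2BP1-NC and 91.6 ± 5.90 FPKM in IGF2BP1-KD cells (SD, n = 3 each). It fell to 71.6% of the control level (95% interval 63.9% to 80.3%), a log2 fold change of -0.48 (SE 0.075, adjusted p = 0.00107 by edgeR), the smallest adjusted p of the 8. Leaving out any 1 library gave log2 fold changes of -0.54 to -0.43 and adjusted p of 5.5e-05 to 0.00833. FDPS was the only 1 of the 8 genes with an adjusted p under 0.05 in every fit that was run. GENCODE names 8 pseudogenes of FDPS and RUSC1-AS1 overlaps it on the opposite strand, and how the counting divided such reads was not given in the sources used here.

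FDFT1 (NCBI gene 2222), squalene synthase, takes the first step that leads to sterols alone. On GRCh38 FDFT1 spans bases 11795573 to 11839395 of chromosome 8 (plus strand), and its canonical transcript has 8 exons. FDFT1 counts were 5008, 6113 and 6486 for the controls and 5104, 4404 and 3535 for the knockdown. Scaled for gene length and depth these are 65.9, 79.9 and 81.6 FPKM against 65.0, 59.5 and 46.3 FPKM, so the groups came close, IGF2BP1-KD library 1 lying just under IGF2BP1-NC library 1, but did not overlap. The log2 fold change was -0.43 (SE 0.15, 95% interval -0.77 to -0.083), with an adjusted p of 0.0676 by edgeR. It was called lower without IGF2BP1-NC library 1 (-0.53, adjusted p = 0.0479) or IGF2BP1-KD library 1 (-0.53, adjusted p = 0.0323), and by DESeq2 (adjusted p = 0.00277) and limma-voom (adjusted p = 0.0334).

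SQLE (NCBI gene 6713), squalene epoxidase, carries out the first oxygen-dependent step and is regarded as a control point of the later pathway. On GRCh38 SQLE spans bases 124998497 to 125022283 of chromosome 8 (plus strand), its canonical transcript has 11 exons, and no annotated gene overlaps it. SQLE counts were 3656, 4653 and 5303 for the controls and 4697, 4277 and 4242 for the knockdown. As for HMGCS1, the IGF2BP1-KD libraries lay inside the range of the controls. The levels were 77.8 ± 12.6 and 76.6 ± 2.87 FPKM (SD, n = 3 each), and the log2 fold change was -0.035 (SE 0.11, 95% interval -0.30 to 0.23, adjusted p = 0.848 by edgeR). Relative to the control, SQLE mRNA was thus at 97.6% with an interval from 81.4% to 117%, which bounds the change more closely than for HMGCS1. Without IGF2BP1-NC library 1 it was called lower at -0.17 (adjusted p = 0.0470), and without IGF2BP1-NC library 2 or 3 the value turned to 0.00014 and 0.078.

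LSS (NCBI gene 4047), lanosterol synthase, closes the sterol rings. On GRCh38 LSS spans bases 46188141 to 46228824 of chromosome 21 (minus strand), and its canonical transcript has 22 exons. LSS counts were 2337, 3302 and 3996 for the controls and 1796, 1578 and 1226 for the knockdown. The highest IGF2BP1-KD library was below the lowest IGF2BP1-NC library. The FPKM was 36.0 ± 8.60 against 17.5 ± 3.11 (SD, n = 3 each). By edgeR's fit to the counts LSS was at 48.0% of the control level (95% interval 31.2% to 74.0%). This was the largest change of the 8 genes, a log2 fold change of -1.06 (SE 0.24, adjusted p = 0.0310 by edgeR). The spread within groups was wide as well, and the call was kept without IGF2BP1-NC library 1 (-1.24, adjusted p = 0.00599) but lost without any 1 of the other 5 libraries, at adjusted p of 0.0570 to 0.0846 and log2 fold changes of -1.16 to -0.89. SQLE, the enzyme just before LSS in the pathway, had a log2 fold change of -0.035, and the difference between these genes was not tested.

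DHCR7 (NCBI gene 1717) reduces 7-dehydrocholesterol to cholesterol, the last step of 1 branch of the pathway. On GRCh38 DHCR7 spans bases 71428193 to 71452868 of chromosome 11 (minus strand), and its canonical transcript has 9 exons. DHCR7 counts were 3350, 4169 and 4908 for the controls and 3026, 2622 and 2226 for the knockdown. The groups did not overlap, with IGF2BP1-NC library 1 the nearest to the IGF2BP1-KD libraries. The FPKM fell from 83.8 ± 13.9 to 53.9 ± 7.51 (SD, n = 3 each). By edgeR's fit to the counts DHCR7 was at 63.7% of the control level (95% interval 48.8% to 83.2%). The log2 fold change was -0.65 (SE 0.16, adjusted p = 0.0261 by edgeR), and -0.78 without IGF2BP1-NC library 1 (adjusted p = 0.00375). Without IGF2BP1-NC library 2 or IGF2BP1-KD library 2 the adjusted p was 0.0767 and 0.0673.

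INSIG1 (NCBI gene 3638) is the only 1 of the 8 that is no enzyme, and its protein retains SCAP in the endoplasmic reticulum. On GRCh38 INSIG1 spans bases 155297776 to 155310235 of chromosome 7 (plus strand), its canonical transcript has 6 exons, and no annotated gene overlaps it. INSIG1 counts were 4207, 5748 and 6886 for the controls and 3171, 3005 and 2397 for the knockdown. All IGF2BP1-KD libraries were below all IGF2BP1-NC libraries. The FPKM was 99.8 ± 21.8 against 51.6 ± 7.25 (SD, n = 3 each). By edgeR's fit to the counts INSIG1 was at 51.2% of the control level (95% interval 35.9% to 73.1%). The log2 fold change was -0.96 (SE 0.20, adjusted p = 0.0209 by edgeR). It was -1.13 without IGF2BP1-NC library 1 (adjusted p = 0.00136) and -0.81 without IGF2BP1-NC library 3 (adjusted p = 0.0352), whereas without IGF2BP1-NC library 2 or any 1 of the IGF2BP1-KD libraries the adjusted p was 0.0528 to 0.0586.

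**Figure D1:**
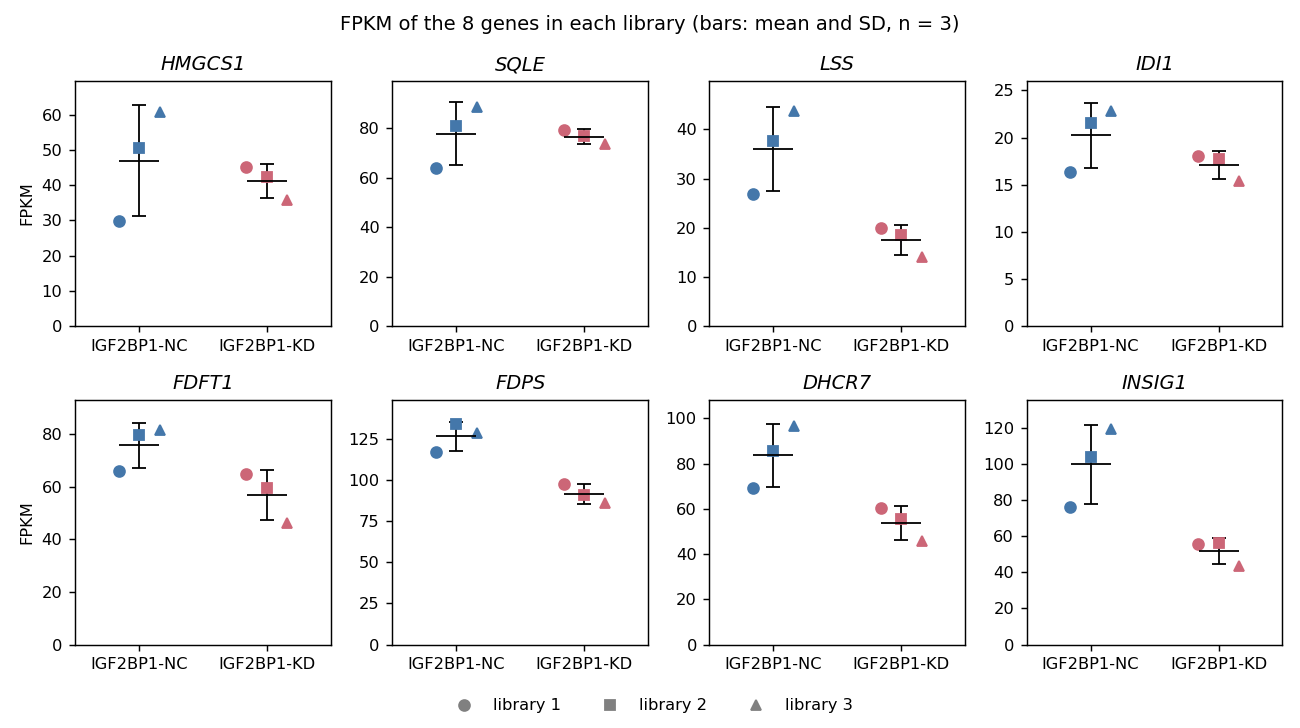
FPKM of each of the 8 genes (vertical axes, each from 0) in IGF2BP1-NC (blue) and IGF2BP1-KD (red) libraries, with circles, squares and triangles for libraries 1, 2 and 3, a horizontal bar for the mean and error bars for the SD (n = 3). The groups stand apart for LSS, FDPS, DHCR7 and INSIG1, nearly touch for FDFT1, and overlap for HMGCS1, SQLE and IDI1.

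By FPKM, which allows genes to be set beside each other, the order of the levels in IGF2BP1-NC cells was FDPS, INSIG1, DHCR7, SQLE, FDFT1, HMGCS1, LSS and IDI1. Most neighbours in this order had overlapping library ranges, and ranges were separate only between FDFT1 (65.9 to 81.6 FPKM) and HMGCS1 (29.8 to 60.7 FPKM) and between LSS (26.8 to 43.7 FPKM) and IDI1 (16.4 to 22.8 FPKM). In IGF2BP1-KD cells the order was FDPS, SQLE, FDFT1, DHCR7, INSIG1, HMGCS1, LSS and IDI1, and the ranges of FDFT1, DHCR7 (45.7 to 60.4 FPKM) and INSIG1 (43.2 to 55.9 FPKM) overlapped, as did those of INSIG1 and HMGCS1. There the ranges of FDPS (86.1 to 97.8 FPKM), SQLE (73.7 to 79.5 FPKM) and FDFT1 (46.3 to 65.0 FPKM) were separate, as were those of HMGCS1 (35.9 to 45.3 FPKM) and LSS (14.0 to 19.9 FPKM), while LSS and IDI1 (15.4 to 18.1 FPKM) overlapped. Over all 6 libraries the mean FPKM of the 8 genes exceeded that of 70.5% (IDI1) to 95.4% (FDPS) of the genes tested, whose median was 8.22 FPKM.

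Within each group the 8 genes kept nearly the same order of libraries. IGF2BP1-NC library 1 was the lowest control library for 8 of 8 genes, and IGF2BP1-NC library 3 the highest for 7 of 8, FDPS being the exception. Among the IGF2BP1-KD libraries, library 3 was the lowest for 8 of 8 and library 1 the highest for 7 of 8, INSIG1 being the exception. In log2 CPM, IGF2BP1-NC library 1 differed from the mean of the other two control libraries by -0.50 on average, with the 8 genes between -0.93 and -0.20, and IGF2BP1-KD library 3 differed from the others of its group by -0.30, between -0.47 and -0.089. The medians of the 8 genes were -0.46 and -0.32. Over all genes tested the same deviations had SDs of 0.35 and 0.29 and medians of 0.0027 and -0.0030, which the TMM scaling keeps near 0. IGF2BP1-NC library 1 was the lowest control for 38.5% and IGF2BP1-KD library 3 the lowest of its group for 38.8% of genes. The 13 other enzymes of mevalonate and sterol synthesis had IGF2BP1-NC library 1 lowest for 12, IGF2BP1-NC library 3 highest for 9, IGF2BP1-KD library 3 lowest for 13 and IGF2BP1-KD library 1 highest for 10. IGF2BP1-NC library 1 also differed most from its group over all genes, with 10.6% of genes over 0.5 (log2) from the mean of the other two, against 4.64% to 7.92% in the other 5 libraries, and the part of this in the results was not tested.

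**Figure D2:**
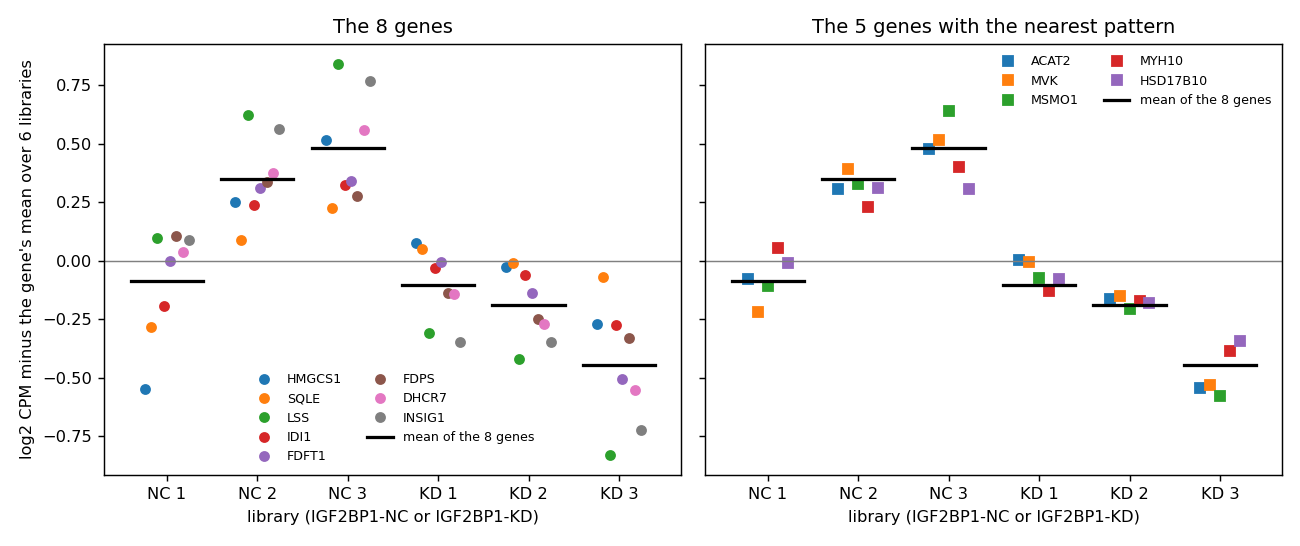
Log2 CPM minus each gene's mean over the 6 libraries (vertical axis), by library (horizontal axis), for the 8 genes (left) and for the 5 genes with the nearest pattern (right), where each point is a gene and each black bar the mean of the 8 genes. In IGF2BP1-NC library 1 the mean of the 8 genes is at -0.087, nearer to IGF2BP1-KD library 1 at -0.11 than to IGF2BP1-NC libraries 2 and 3 at 0.35 and 0.48, and IGF2BP1-KD library 3 is lowest at -0.45.

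Each count was also computed with each library left out. Without IGF2BP1-NC library 1, all 8 genes were called lower, at log2 fold changes of -1.24 (LSS) to -0.17 (SQLE), in a fit that called 16.9% of 12171 genes lower. As this library was the lowest control for all 8, the shift to lower values follows from that order and is no separate result. Without IGF2BP1-NC library 2 or IGF2BP1-KD library 2, FDPS was the only gene of the 8 called. Without IGF2BP1-NC library 3, FDPS, DHCR7 and INSIG1 were called, without IGF2BP1-KD library 1 FDPS, DHCR7 and FDFT1, and without IGF2BP1-KD library 3 FDPS and DHCR7. The number called thus ran from 1 to 8, and the arm that lost a library had 2 libraries in each of these fits. Over all genes, 1738 were called lower with all libraries, 1146 without IGF2BP1-KD library 2 and 2062 without IGF2BP1-NC library 1. These were the lowest and highest counts with 1 library left out. Apart from the fit without IGF2BP1-NC library 1, the share over all genes is not given. A lower count of the 8 in those fits is therefore not read as a result about these genes.

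**Figure D3:**
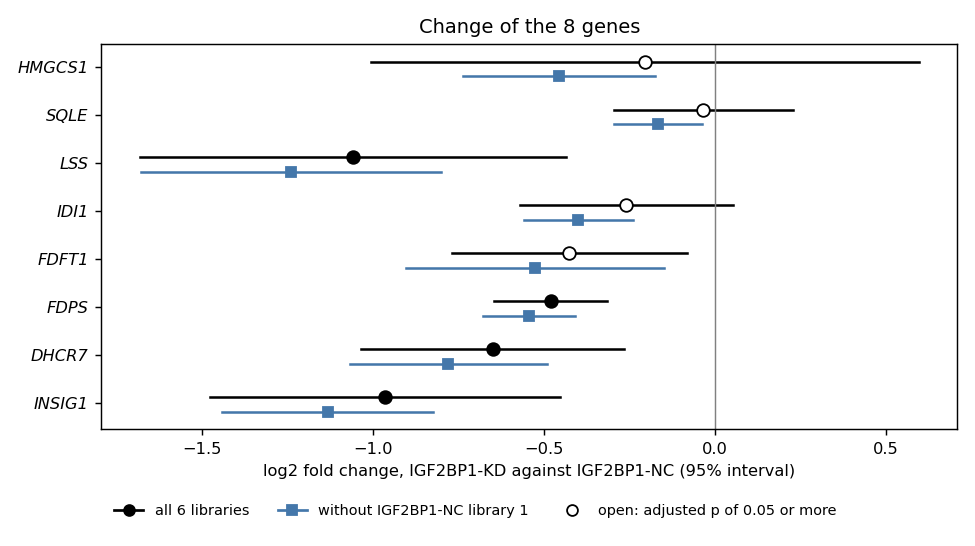
Log2 fold change of the 8 genes in IGF2BP1-KD against IGF2BP1-NC cells (horizontal axis) with 95% intervals, from all 6 libraries (black circles) and without IGF2BP1-NC library 1 (blue squares), filled where the adjusted p was under 0.05. With all libraries LSS, FDPS, DHCR7 and INSIG1 are filled, and without IGF2BP1-NC library 1 all 8 are filled and lie further to the left. The shift to the left follows from this library being the lowest control for all 8 genes.

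The 5 tested genes outside the 8, with log2 CPM averaging 3 or more, whose centred pattern over the 6 libraries was nearest to the mean of the 8 were ACAT2, MVK, MSMO1, MYH10 and HSD17B10, by root mean square differences of 0.064, 0.082, 0.086, 0.087 and 0.090 in log2 CPM. The median of the 9231 genes compared was 0.328, and the 8 genes themselves lay 0.082 to 0.284 from their mean. ACAT2, MVK and MSMO1 are enzymes of the same pathway: ACAT2 makes acetoacetyl-CoA, MVK phosphorylates mevalonate and MSMO1 takes part in removing methyl groups from the sterol ring. Their log2 fold changes were -0.47, -0.48 and -0.59. MYH10, a non-muscle myosin heavy chain, was at -0.46 and HSD17B10, a mitochondrial dehydrogenase, at -0.41. These values describe genes that were chosen by their pattern over the same libraries, and no test is given for them.

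Other enzymes of the pathway were described as a list of 13 genes, all of them tested. MVD, the decarboxylase that yields isopentenyl diphosphate, and LBR, a sterol reductase of the inner nuclear membrane, were called lower by edgeR and none was called higher, with 3 lower and 1 higher at an unadjusted p under 0.05. The share called lower, 15.4%, was near the 14.5% of all genes tested. The median log2 fold change was -0.15, with 10 of 13 below 0. MVD had 57.6, 80.4 and 79.5 FPKM as control and 48.6, 40.9 and 32.8 FPKM after knockdown, without overlap, and its log2 fold change was -0.84 (SE 0.20, adjusted p = 0.0307). MVD lost its call without library 2 or 3 of either group, and LBR (-0.25, adjusted p = 0.0273) without IGF2BP1-NC library 2 or 3 or IGF2BP1-KD library 3. The number of the 13 called lower was 0 to 5 with 1 library left out, 5 being the count without IGF2BP1-NC library 1 and 0 those without IGF2BP1-NC library 2, IGF2BP1-NC library 3 and IGF2BP1-KD library 3. DESeq2 called 4 lower, and both DESeq2 and limma-voom called 0 higher.

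Among 11 regulators of SREBP, SREBF1 was lower and MBTPS1 and RNF145 were higher, and the median log2 fold change was 0.0050. These calls are 9.09% lower and 18.2% higher, beside 14.5% lower and 13.7% higher over all genes tested. SREBF1 had 37.6, 38.1 and 38.1 FPKM as control and 28.7, 28.5 and 27.9 FPKM after knockdown, a narrow spread inside either group, with a log2 fold change of -0.43 (SE 0.055, adjusted p = 3.2e-04 by edgeR). SREBF2, which encodes SREBP2, was at 38.0, 34.6 and 37.6 FPKM against 35.0, 32.1 and 29.7 FPKM. Its groups overlapped through IGF2BP1-KD library 1, and the log2 fold change of -0.20 (SE 0.072) had an adjusted p of 0.0605, which was 0.0373 without that library. SCAP was at a log2 fold change of -0.085 (adjusted p = 0.345) and INSIG2, the second INSIG gene, at 0.15 (adjusted p = 0.531), with only 1.83 to 2.31 FPKM in any library. MBTPS1, the site-1 protease that cuts SREBP in the Golgi, rose by 0.26 (adjusted p = 0.0179), and RNF145, a ubiquitin ligase of the endoplasmic reticulum that acts on SCAP, rose by 0.55 (adjusted p = 0.00298).

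Of 7 genes of sterol uptake and transport, 2 were lower and 2 higher by edgeR. That is 28.6% either way, beside 14.5% lower and 13.7% higher over all genes tested. NPC2 (0.56) and STARD3 (0.31), which handle cholesterol in late endosomes, were higher, and NPC1 (-0.26), the membrane partner of NPC2, and STARD4 (-0.39), a cytosolic sterol carrier, were lower. The list had a median log2 fold change of 0.055.

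The list of SREBP1 and fatty acid synthesis had the largest share of calls of the 7 lists, 9 of 12 genes lower and 2 higher, with a median log2 fold change of -0.34. These calls are 75% lower and 16.7% higher, beside 14.5% lower and 13.7% higher over all genes tested. ACACA (acetyl-CoA carboxylase) was lowest at -0.68 (SE 0.072, adjusted p = 1.2e-04 by edgeR), from 29.6 to 34.7 FPKM in IGF2BP1-NC to 19.8 to 20.6 FPKM in IGF2BP1-KD libraries. ME1 (-0.64), FADS2 (-0.53), ACSS2 (-0.43), ACLY (-0.42), ELOVL5 (-0.34), FASN (-0.34), LPIN1 (-0.33) and SCD (-0.23) followed, most of which supply NADPH or acetyl-CoA or build, lengthen or desaturate fatty acids. ACLY and ACSS2 supply the acetyl-CoA that HMGCS1 also draws on. ELOVL6 (0.41), a fatty acid elongase, and GPAM (0.36), which begins glycerolipid synthesis, were higher. IGF2BP1-NC library 1 was the lowest control library for 6 of these 12 genes, where it was lowest for 8 of the 8 sterol genes, while IGF2BP1-KD library 3 was the lowest of its group for 10 of the 12 and IGF2BP1-KD library 1 the highest for 9.

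In the isoprenoid branch, which draws on the product of FDPS, 3 of 11 genes were lower, and 0 were higher by edgeR, DESeq2 and limma-voom (1 at an unadjusted p under 0.05). The share lower was 27.3%, beside 14.5% over all genes tested. GGPS1, which makes geranylgeranyl diphosphate, was at -0.36, FNTA, a subunit of protein prenyltransferases, at -0.45 and COQ2, of ubiquinone synthesis, at -0.33. Of 7 genes of LXR and cholesterol efflux, 4 had enough counts to be tested, and LPCAT3, which places polyunsaturated chains in phospholipids, was lower at -0.90 (SE 0.092, adjusted p = 9.3e-05 by edgeR). Of 8 enzymes of sterol esters and oxysterols, 3 were tested, and NCEH1, a cholesteryl ester hydrolase, was lower at -0.67 (adjusted p = 0.0110). Neither of these 2 lists had a gene called higher by edgeR, DESeq2 or limma-voom, or at an unadjusted p under 0.05. In the list of LXR and cholesterol efflux 2 of the 4 tested genes were below 0, and the highest log2 fold change, not called, was 0.77. Their shares lower, 25% and 33.3%, rest on 1 gene each. Over the 7 lists, 25 genes were called, of which 15 were called in each of the 6 fits with 1 library left out. The other 10 were MVD, LBR, MBTPS1, NPC1, STARD3, FASN, SCD, GPAM, LPIN1 and COQ2, and NPC1 and GPAM were those not called without IGF2BP1-NC library 1. By the pathway terms in the deposited table, 2 of 16 tested genes of Steroid biosynthesis were lower and 0 higher, and 4 of 20 of Terpenoid backbone biosynthesis were lower and 1 higher, terms that include 4 and 3 of the 8 genes. These are 12.5% and 20% lower and 0% and 5% higher, beside 14.5% lower and 13.7% higher over all genes tested.

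In the GENCODE release 44 transcripts the 8 mRNAs differed widely in length, from 1417 bases (FDPS) to 5350 bases (HMGCS1), and their 3′ untranslated parts from 56 bases (FDPS) to 3661 bases (HMGCS1). TGGAC, a 5-base form of the GGAC core known for m6A, occurred 0.374 times (HMGCS1) to 2.12 times (FDPS) per kilobase, with a median of 1.12 over the 8 genes and 1.15 over 11505 tested genes with a coding transcript. Of the 4 genes called lower, FDPS and LSS (1.43) lay above and INSIG1 (0.688) below the median of all, and DHCR7 (1.14) lay close to it. Whether these letters carry m6A or bind IGF2BP1 in these cells was not measured here. GENCODE also places 1 gene on the opposite strand over each of HMGCS1, FDFT1 and DHCR7 and 2 over LSS, none of which is in the deposited tables under the name used there, and the strand setting of the counting was not given in the sources used here.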

How the data were processed

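Counts and FPKM of 20030 genes in 6 libraries of cells labelled H929 were used, grouped by the labels into IGF2BP1-KD and IGF2BP1-NC (3 each). For the reads, the submitters' processing notes name Trimmomatic (trimming), HISAT2 (mapping, GRCh38) and HTSeq (counting per gene), and the counts deposited by the authors are whole and not normalized. FPKM was computed by the authors with Cufflinks. Tool versions, annotation release and strand setting are not given in the sources used here. The total was 16885449 to 18112179 counts per library.

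The test was that of edgeR 4.0.16 under R 4.3.3 (TMM factors, filterByExpr, glmQLFit and glmQLFTest, two-sided), with Benjamini-Hochberg adjustment over the 11994 genes kept and calls at an adjusted p under 0.05. Alternatives were DESeq2 1.42.0, limma-voom and limma 3.58.1 on log2(FPKM + 1) or log2(FPKM + 0.1) with a mean FPKM of at least 1 or no filter, library size or upper-quartile scaling, no filter or at least 10 counts in every library, a fold change of at least 2, the replicate number as a block and each library left out. The log2 CPM used a prior count of 2. Annotation was GENCODE release 44, matched to the files by symbol, and promoters were RefSeq's. Further steps used Python 3.11.15, pandas 2.3.3 and, for plots, matplotlib 3.10.9. Tested on simulated data in which 200 of 11999 genes changed, edgeR found 197 and called 8 unchanged genes. The simulation gave every gene the same spread and changed only genes with enough counts. It held no change as small as those of FDPS, FDFT1, IDI1, HMGCS1 and SQLE. How well edgeR finds changes that small, or in genes with the spread between libraries of the sterol genes, was not tested.

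The 8 genes and the lists were chosen with earlier results of these data known. Named are the 8 genes, IGF2BP1, SREBF1, SREBF2, SCAP and INSIG2, every called gene of the 7 lists and the 5 genes of nearest pattern. Some genes of the pathway lists are not reported here and were left out of the counts of those lists.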

Additional observations from a re-analysis of the deposited data

How the results depend on the processing

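IGF2BP1 kept its direction and its call under every alternative, at log2 fold changes of -1.90 to -1.77. The count of the 8 sterol genes called lower was 1 with no filter on low counts, where the adjusted p of LSS, DHCR7 and INSIG1 was 0.0625, 0.0675 and 0.0536, and 1 when a fold change of at least 2 was also asked. It was 5 by DESeq2, limma-voom and both filtered limma fits on FPKM, FDFT1 being the addition, and 1 to 8 with 1 library left out. With 1 library left out, log2 fold changes ran from -0.46 to 0.029 for HMGCS1 and from -0.17 to 0.078 for SQLE (0.00014 without IGF2BP1-NC library 2), the highest value being that without IGF2BP1-NC library 3 for both. Over all genes, the calls lower numbered 1146 to 2062 and the calls higher 1144 to 1929 with 1 library left out, and 200 and 367 at a fold change of at least 2. Of the 13 other sterol enzymes, 4 were called lower by DESeq2 and 1 with no filter on counts or on FPKM, and 0 to 5 with 1 library left out. The count higher was 1 in both filtered limma fits on FPKM and 0 to 1 with 1 library left out. Of the fatty acid list, 1 gene was higher by DESeq2 and by the 3 limma fits on FPKM, and 1 to 2 with 1 library left out. For the 25 called genes of the 7 lists and for SREBF2, SCAP and INSIG2, 394 of the recomputed values kept direction and call, 52 lost the call and 2 gained it. The cause was not tested.

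Replicate numbers are shared between the groups, but nothing says that they pair the samples. Same-numbered samples deviated together with r of -0.052, 0.036 and -0.11 across genes, and 1 of 6 samples correlated best with its own number. With the replicate number as a block, 1 of the 8 genes was called lower, FDPS (adjusted p = 0.0038 by edgeR), and 1 of the 13 other sterol enzymes.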
